A study of Rattus norvegicus with 18 samples.

Results

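The genes described here are 9 genes of complement, lipopolysaccharide (LPS) sensing and leukocyte adhesion: C3, Cfb, C1s and Serping1 of complement, Lbp, Cd14 and Tlr4 of LPS sensing, and Vcam1 and Icam1 of adhesion. They were chosen by symbol with earlier results of these data known, so they give no independent support for a direction. On each array a gene was given the median log2 value of those probe sets that the platform annotation pairs with its symbol alone, and all 9 had a value, from 141 of the 223110 probe sets with 1 symbol, among 16988 genes in all. The cells were WB-F344, stem-like epithelial cells of rat liver kept as a line, confluent and at passages 14 to 16. They were exposed to 100 nM PCB126, a dioxin-like polychlorinated biphenyl that binds the aryl hydrocarbon receptor, or to 0.1% DMSO, the vehicle, for 6, 24 or 72 h. Each treatment and time had 3 independent repeats, as the labels put it, with 1 exon array for each of the 18 samples. The series set PCB126 against DMSO at each time.

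Complement is a cascade of plasma proteins, most of them made by the liver, in which C3 is the protein cleaved on microbial or damaged surfaces. LPS of Gram-negative bacteria is carried by the LPS-binding protein (Lbp) to CD14, which hands it to Toll-like receptor 4. Vcam1 and Icam1 are cell surface proteins that hold passing leukocytes through their integrins. Hepatocytes raise several of these genes in the acute phase response, through NF-κB and C/EBP factors.

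Cyp1a1, the textbook target of the aryl hydrocarbon receptor, averaged 6.97 ± 0.45, 9.69 ± 0.26 and 10.33 ± 0.46 log2 units in PCB126 cultures at 6, 24 and 72 h, and 4.07 ± 0.21, 4.15 ± 0.23 and 4.11 ± 0.24 in DMSO cultures (SD, n = 3 arrays each). Aldh3a1, another target, was higher by 4.63, 4.43 and 5.91 log2 units. Of the line's own markers, Krt8, Krt14, Gja1 and Vim were well above the median of all probe sets, 4.03, and of the 8 listed 7 were above it, all but Afp (3.48), of fetal liver cells. Of 9 hepatocyte markers 5 were above it, with Cyp2e1 at 9.77 and the other 4 between 4.06 and 4.96, and 4 were below it, among them Alb (3.47). The median of the gene values ran from 6.19 to 6.54 over the 18 arrays. It was well above 4.03, the median of all probe sets, most of which have no symbol. Of the line's markers above 4.03, Cdh2 (4.21), Krt18 (4.58) and Cdh1 (4.71) lay below the median gene. A level above 4.03 therefore does not show that a marker was expressed.

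The promoter reference held no sequence for Cfb, C1s, Serping1 and Lbp. Promoters are shown for 4 of the other genes. These are C3, Cd14 and Vcam1, which were lower in PCB126 than in DMSO cultures at 24 and 72 h, and Icam1. The last is the other adhesion gene and passed the test at no time. Each runs 5′ to 3′ on the gene's strand, from 250 bases before the transcript start to 50 after it, from RefSeq on the GRCr8 build. C3 lies on the minus strand at chr9:2201290-2201589, Cd14 on the minus strand at chr18:28611109-28611408, Vcam1 on the minus strand at chr2:206742734-206743033 and Icam1 on the plus strand at chr8:27829595-27829894. Capitals mark matches to the NF-κB motif GGGRNNYYCC, to the aryl hydrocarbon receptor core GCGTG or to the C/EBP motif TTNNGNAAT, on either strand. R stands for A or G, Y for C or T and N for any base. Sites that depart from these letters are not marked.
C3: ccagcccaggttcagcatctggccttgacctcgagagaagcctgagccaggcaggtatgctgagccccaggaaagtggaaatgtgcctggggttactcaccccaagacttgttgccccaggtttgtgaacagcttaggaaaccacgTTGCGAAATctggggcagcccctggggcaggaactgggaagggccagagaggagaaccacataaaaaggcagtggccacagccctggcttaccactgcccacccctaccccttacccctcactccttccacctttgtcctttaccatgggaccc
Cd14: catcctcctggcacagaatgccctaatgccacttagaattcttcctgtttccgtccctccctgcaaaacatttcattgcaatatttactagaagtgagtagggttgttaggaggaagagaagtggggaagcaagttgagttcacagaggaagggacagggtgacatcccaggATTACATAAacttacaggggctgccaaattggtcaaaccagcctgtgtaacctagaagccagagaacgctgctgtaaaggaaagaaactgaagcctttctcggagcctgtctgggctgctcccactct
Vcam1: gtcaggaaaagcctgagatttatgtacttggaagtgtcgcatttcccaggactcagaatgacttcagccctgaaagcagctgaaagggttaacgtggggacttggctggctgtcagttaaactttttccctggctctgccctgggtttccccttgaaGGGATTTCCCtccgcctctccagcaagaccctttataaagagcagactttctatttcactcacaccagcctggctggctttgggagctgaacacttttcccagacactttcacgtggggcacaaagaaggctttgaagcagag
Icam1: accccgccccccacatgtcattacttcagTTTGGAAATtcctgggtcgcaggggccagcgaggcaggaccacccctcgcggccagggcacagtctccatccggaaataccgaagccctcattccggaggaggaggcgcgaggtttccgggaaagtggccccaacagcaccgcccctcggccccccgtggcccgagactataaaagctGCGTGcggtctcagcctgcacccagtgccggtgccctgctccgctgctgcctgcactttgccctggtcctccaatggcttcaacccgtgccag

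Vcam1 was the only one of the 5 promoters searched, Tlr4 included, with a match to the NF-κB motif as written. The match, GGGATTTCCC at position -93 from the start, holds on both strands. Variants of the motif were not searched for, so further NF-κB sites may be present in any of the windows. C3 held the C/EBP letters TTGCGAAAT at -104, Cd14 held them on the opposite strand as ATTACATAA at -78, and Icam1 held TTTGGAAAT at -221. The core GCGTG was found in Icam1 alone, at -43. Of the 33469 rat promoters of the same length, 7.51% hold the NF-κB motif, 12.3% the C/EBP motif and 29.7% GCGTG. An E-box, CACGTG, which 6.42% of promoters hold, was found in Vcam1 at 17 after the start, and TATAAA, which 14.2% hold, in Vcam1 at -60 and Icam1 at -53. In Vcam1 the TATAAA match overlaps a match to the same letters on the opposite strand. The Tlr4 window had no match to any of the motifs. These are letter matches in 1 window per gene, and binding was not measured.

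The 9 genes fell into a group of 6 that was lower in PCB126 cultures at both later times and a group of 3 that passed the test at no time. At 24 h Lbp, the LPS carrier, was 5.39-fold lower in PCB126 cultures and Vcam1 2.86-fold lower. C3, C1s, Cfb and Cd14 were lower by 1.97-, 1.94-, 1.82- and 1.55-fold. At 72 h Vcam1, Lbp and C3 were each more than 3-fold lower (3.19-, 3.16- and 3.02-fold), and Cfb, Cd14 and C1s were lower by 1.96-, 1.70- and 1.65-fold. Serping1, Tlr4 and Icam1 did not pass the test at any time. In RNA from whole dishes, fewer cells with a transcript and less transcript per cell cannot be told apart.

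A gene was called changed where its limma p-value, adjusted over all 16988 genes, was under 0.05. At 6 h limma called 0 of the 9 genes, with 3 of the 9 at an unadjusted p under 0.05, where 0.494% of all genes were called and 8.31% had an unadjusted p under 0.05. At 24 h it called 6 of 9, all lower, where 4.84% of all genes were called and 3.14% were called lower. At 72 h the same 6 were called lower, where 7.44% of all genes were called and 4.14% were called lower. The median difference of the 9 genes, PCB126 minus DMSO, was -0.08, -0.86 and -0.76 log2 units at 6, 24 and 72 h, against -0.01, -0.02 and 0 over all genes. The arrays of the PCB126 and DMSO groups did not overlap for 2 of the 9 genes at 6 h, 7 at 24 h and 7 at 72 h, and over all genes the share without overlap was 16.9%, 21.8% and 20.2%. Serping1 was the gene without overlap beyond the called ones at 24 h, and Tlr4 at 72 h.

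**Figure D1:**
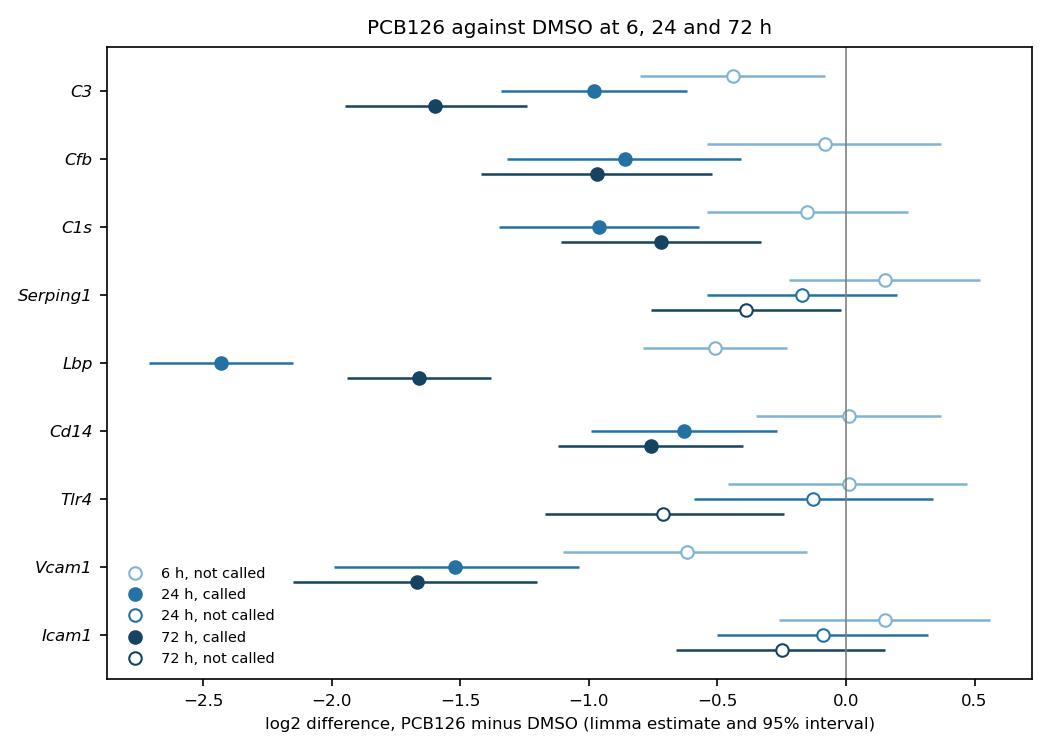
Difference between PCB126 and DMSO cultures for each of the 9 genes at 6, 24 and 72 h, in log2 units (PCB126 minus DMSO, limma estimate and 95% interval), with filled points for an adjusted p under 0.05. Lbp at 24 h has the lowest estimate, -2.43, and Icam1 stays within 0.25 of 0 at all 3 times.

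C3, the component on which all complement pathways meet, was lower at every time in the PCB126 arrays. At 6 h its log2 levels were 5.49, 5.74 and 5.51 in PCB126 cultures and 5.87, 6.10 and 6.09 in DMSO cultures. At 24 h they were 5.28, 5.80 and 5.48 in PCB126 cultures and 6.37, 6.85 and 6.29 in DMSO cultures. At 72 h they were 5.14, 5.07 and 5.29 in PCB126 cultures and 6.60, 6.68 and 7.01 in DMSO cultures. No PCB126 array reached the lowest DMSO array of its time. The difference was -0.44 ± 0.17 log2 units (SE) at 6 h, which limma did not call (adjusted p = 0.451), -0.98 at 24 h (adjusted p = 0.0021) and -1.60 at 72 h (adjusted p = 1.07e-05). The difference at 72 h minus that at 6 h was -1.16 ± 0.24 log2 units (adjusted p = 0.0293), in a comparison where 0.948% of all genes were called. That last call was lost when any 1 of 9 arrays was left out (all 3 DMSO and all 3 PCB126 arrays of 6 h, replicate 3 of DMSO at 72 h, and replicates 1 and 2 of PCB126 at 72 h), with adjusted p between 0.0514 and 0.0804. C3 rests on 45 probe sets, of which 43 were lower in PCB126 cultures at 24 h and 42 at 72 h.

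C3 also changed with time in DMSO cultures, where it was higher at 72 h than at 6 h by 0.74 log2 units (limma adjusted p = 0.0226), in a comparison with 4.14% of all genes called. That call was lost without any 1 of the 3 DMSO arrays of 6 h or without replicate 3 of DMSO at 72 h (adjusted p between 0.0519 and 0.115). In PCB126 cultures the difference between 72 and 6 h was -0.42 log2 units and was not called (adjusted p = 0.185). In order of level the DMSO groups of 72, 24 and 6 h came first and the PCB126 groups of 6, 24 and 72 h after them. The arrays of neighbouring groups in this order overlapped between DMSO at 72 and 24 h and among the PCB126 groups, and not at the other steps.

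Cfb encodes factor B, the protease-bearing part of the alternative pathway convertase. At 6 h its log2 levels were 6.44, 6.98 and 6.91 in PCB126 cultures and 6.43, 7.06 and 7.09 in DMSO cultures. At 24 h they were 6.10, 6.66 and 6.47 in PCB126 cultures and 7.31, 7.28 and 7.23 in DMSO cultures. At 72 h they were 5.15, 5.23 and 5.66 in PCB126 cultures and 6.01, 6.41 and 6.53 in DMSO cultures. The groups overlapped at 6 h and were separate at 24 and 72 h. The difference was -0.08 log2 units at 6 h (limma adjusted p = 0.964), -0.86 ± 0.21 (SE) at 24 h (adjusted p = 0.0258) and -0.97 at 72 h (adjusted p = 0.00883). The 24 h call was lost without any 1 of 5 arrays, the 3 DMSO arrays of 24 h and replicates 1 and 3 of PCB126 at 24 h (adjusted p between 0.0644 and 0.132). All 20 probe sets were lower in PCB126 cultures at 24 h and at 72 h.

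Cfb also fell with time in PCB126 cultures, by 1.43 log2 units between 6 and 72 h (limma adjusted p = 0.000632) and by 1.06 between 24 and 72 h (adjusted p = 0.0301), the second in a comparison where 0.642% of all genes were called. The second call was lost on centring each array on its median gene (adjusted p = 0.0564). It was also lost without replicate 2 or 3 of PCB126 at 24 h or replicate 1 or 2 of PCB126 at 72 h (adjusted p between 0.0808 and 0.168). In DMSO cultures Cfb averaged 6.32 ± 0.27 at 72 h and 7.27 ± 0.04 at 24 h (SD, n = 3), a difference of -0.96 log2 units that was not called (adjusted p = 0.0739). It was called under 7 alternatives with adjusted p between 0.00812 and 0.05, among them the mean over probe sets and leaving out replicate 1 of DMSO at 6 h (adjusted p = 0.0475). The annotation pairs 10 further probe sets with both Cfb and its neighbour C2, and these did not enter the gene value. Their median difference was 0.04, -0.86 and -1.12 log2 units at 6, 24 and 72 h, and all 10 were lower in PCB126 cultures at both later times.

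C1s, the serine protease of the C1 complex that cleaves C4 and C2, had log2 levels between 9.71 and 11.19 on all 18 arrays. At 6 h its log2 levels were 10.54, 10.33 and 10.49 in PCB126 cultures and 10.86, 10.55 and 10.41 in DMSO cultures. Those at 24 h were 9.71, 10.32 and 10.35 in PCB126 cultures and 11.19, 10.98 and 11.08 in DMSO cultures. Those at 72 h were 10.38, 9.72 and 9.96 in PCB126 cultures and 10.79, 10.71 and 10.72 in DMSO cultures. The groups overlapped at 6 h only, and the PCB126 arrays were spread more widely than the DMSO arrays at 24 and 72 h. The difference was -0.15 log2 units at 6 h (limma adjusted p = 0.898), -0.96 ± 0.18 (SE) at 24 h (adjusted p = 0.00487) and -0.72 at 72 h (adjusted p = 0.0228). The 72 h call was lost without any 1 of the 3 DMSO arrays of 72 h or without replicate 2 or 3 of PCB126 at 72 h (adjusted p between 0.0582 and 0.099). All 13 probe sets were lower at 24 h, between -1.21 and -0.70 log2 units, and at 72 h, between -1.40 and -0.36.

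Serping1 encodes the C1 inhibitor, which blocks C1s and C1r. Its log2 level stayed near the median probe set, averaging 4.55 ± 0.07, 4.39 ± 0.05 and 4.32 ± 0.16 in PCB126 cultures at 6, 24 and 72 h and 4.40 ± 0.39, 4.56 ± 0.07 and 4.71 ± 0.30 in DMSO cultures (SD, n = 3). At 24 h its PCB126 arrays, 4.37, 4.36 and 4.44, were all below the DMSO arrays, 4.62, 4.48 and 4.58. At 72 h they were 4.17, 4.29 and 4.49 in PCB126 cultures and 4.79, 4.37 and 4.96 in DMSO cultures, and overlapped. The difference was -0.17 log2 units at 24 h (95% interval -0.54 to 0.20, limma adjusted p = 0.748) and -0.39 at 72 h (-0.76 to -0.02, adjusted p = 0.24). Of its 12 probe sets, 8 were brighter than the median probe set, and 6 of those 8 were lower in PCB126 cultures at 24 h and again at 72 h.

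**Figure D2:**
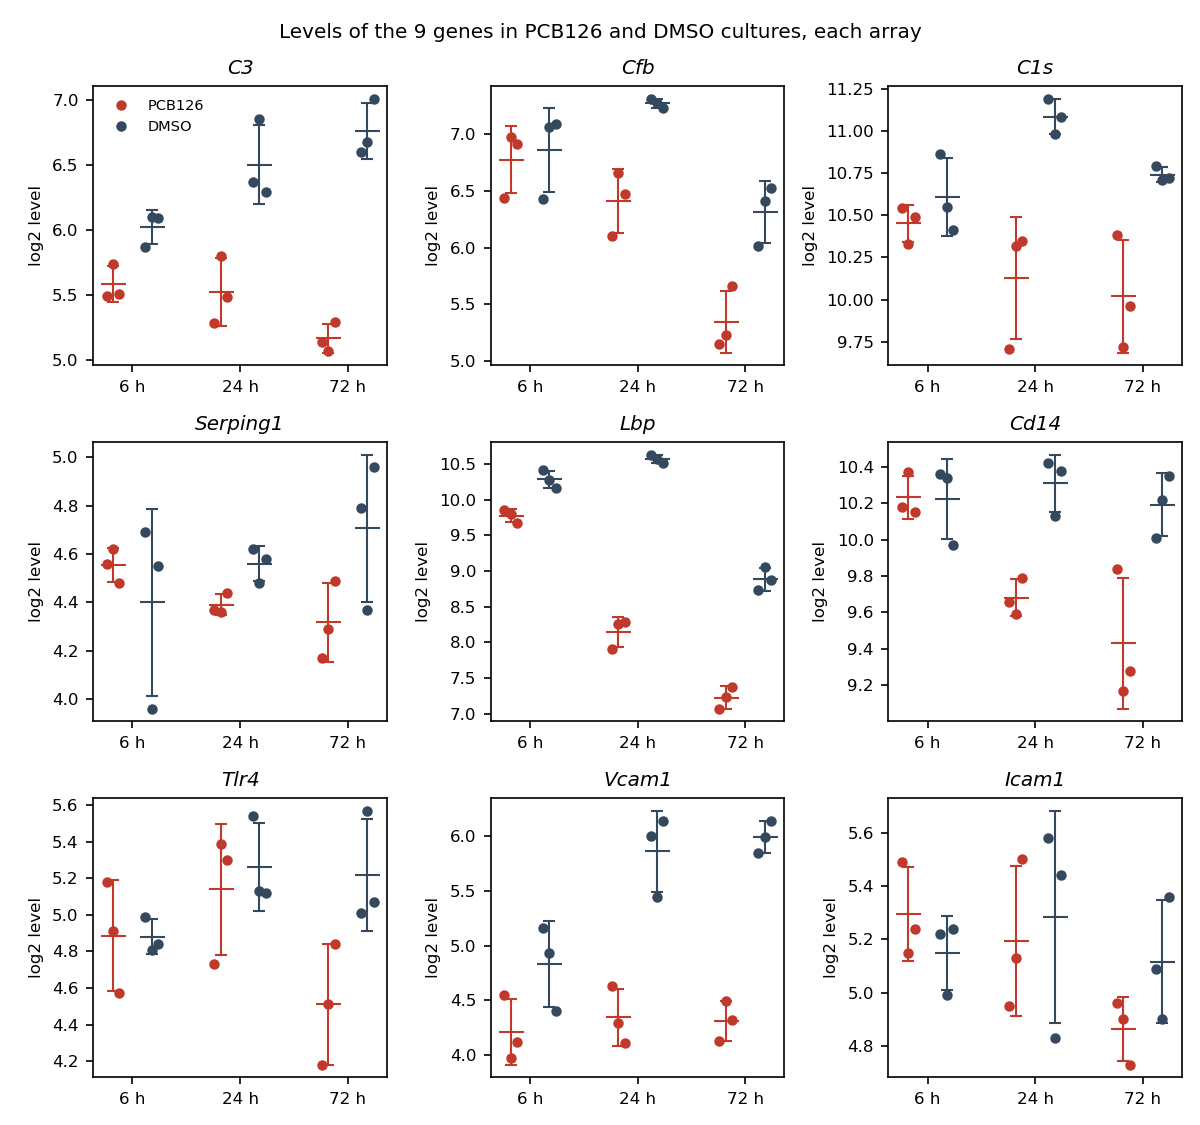
Log2 level of each of the 9 genes on each array, PCB126 cultures in red and DMSO cultures in dark blue at 6, 24 and 72 h, with bars for the group mean and SD (n = 3) and a separate axis range per gene. Lbp separates the groups at all 3 times, and C1s and Cd14 at 24 and 72 h but not at 6 h.

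Lbp, the carrier that delivers LPS to CD14, had the largest difference of the 9 genes at 24 h and changed with both treatment and time. At 6 h its log2 levels were 9.85, 9.80 and 9.67 in PCB126 cultures and 10.41, 10.28 and 10.17 in DMSO cultures. Those at 24 h were 7.90, 8.26 and 8.28 in PCB126 cultures and 10.63, 10.57 and 10.52 in DMSO cultures. Those at 72 h were 7.07, 7.23 and 7.38 in PCB126 cultures and 8.73, 9.05 and 8.87 in DMSO cultures. The groups were separate at every time, and no array of 1 of the 6 groups fell within the range of another. The difference was -0.51 ± 0.13 log2 units (SE) at 6 h, which limma did not call with all arrays (adjusted p = 0.134). It was -2.43 at 24 h (adjusted p = 1.31e-08), the fifth lowest of all 16988 genes, and -1.66 at 72 h (adjusted p = 5.51e-07), at place 42 from the lowest.

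The effect of PCB126 on Lbp differed between the times in limma's F-test (F = 53.4, adjusted p = 0.000498), which called 1 of the 9 genes, Lbp, and 0.565% of all genes. The difference at 24 h minus that at 6 h was -1.92 ± 0.19 log2 units (SE, adjusted p = 0.000342). Lbp was the 1 of 9 genes called in this comparison, where 0.0294% of all genes were called. That at 72 h minus that at 6 h was -1.15 log2 units (adjusted p = 0.0065), and that at 72 h minus that at 24 h was not called (0.77 log2 units, adjusted p = 0.347). Of the 9 genes, limma called 0 in that last comparison, with 2 at an unadjusted p under 0.05, where 0.0235% of all genes were called and 5.52% had an unadjusted p under 0.05.

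Lbp also fell with time within each treatment. In PCB126 cultures the level at 24 h minus that at 6 h was -1.63 log2 units (limma adjusted p = 2.57e-05), the 1 of 9 genes called there, where 0.624% of all genes were called. The level at 72 h minus that at 24 h was -0.92 (adjusted p = 0.00385). In DMSO cultures the level at 72 h minus that at 24 h was -1.69 log2 units (adjusted p = 1.48e-05), again the 1 of 9 genes called, where 0.389% of all genes were called. Between 24 and 6 h in DMSO cultures limma called 0 of the 9 genes and 0% of all genes, with 4 of the 9 and 5.81% of all genes at an unadjusted p under 0.05. In order of level, PCB126 at 24 h lay below DMSO at 72 h, and PCB126 at 72 h was the lowest group.

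Of the 18 probe sets of Lbp, 16 were lower in PCB126 cultures at each time, with medians over all 18 of -0.56, -2.36 and -1.72 log2 units at 6, 24 and 72 h. The other 2 were not lower at any time. One of these, with a mean level of 5.36, is among the dimmer probe sets of the gene, and the other, with a mean level of 9.30, is close to the gene's median probe set, 9.25. With the mean over the probe sets in place of the median, the 6 h difference of Lbp was -0.48 log2 units and was called (limma adjusted p = 0.0357).

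Cd14, the co-receptor that takes LPS from Lbp, was at one level in both treatments at 6 h. Its log2 levels there were 10.18, 10.37 and 10.15 in PCB126 cultures and 10.36, 10.34 and 9.97 in DMSO cultures. Those at 24 h were 9.66, 9.59 and 9.79 in PCB126 cultures and 10.42, 10.13 and 10.38 in DMSO cultures. Those at 72 h were 9.84, 9.17 and 9.28 in PCB126 cultures and 10.01, 10.22 and 10.35 in DMSO cultures. The groups were separate at 24 and 72 h, although replicate 1 of PCB126 at 72 h lay closer to the DMSO arrays than to the other PCB126 arrays. The difference was 0.01 log2 units at 6 h (95% interval -0.35 to 0.37, limma adjusted p = 0.994), -0.63 ± 0.17 (SE) at 24 h (adjusted p = 0.0407) and -0.76 at 72 h (adjusted p = 0.00952). The 24 h call was lost without any 1 of 9 arrays: replicates 1 and 3 of DMSO and all 3 of PCB126 at 24 h, replicate 2 of DMSO and replicates 1 and 3 of PCB126 at 6 h, and replicate 2 of DMSO at 72 h (adjusted p between 0.0518 and 0.162). All 5 probe sets were lower at 24 h, between -0.82 and -0.54, and at 72 h, between -0.86 and -0.43.

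In PCB126 cultures Cd14 fell by 0.80 log2 units between 6 and 72 h (limma adjusted p = 0.00957), a call lost without replicate 2 of PCB126 at 6 h or replicate 2 of PCB126 at 72 h (adjusted p = 0.0508 and 0.0506). In DMSO cultures that difference was -0.03 (95% interval -0.39 to 0.33, adjusted p = 0.958). Over the 72 and 6 h PCB126 groups limma called 3 of the 9 genes, Lbp, Cfb and Cd14, where 5.66% of all genes were called. In the DMSO groups of the same times it called 3, with Lbp lower and C3 and Vcam1 higher, where 4.14% of all genes were called. The change of the PCB126 effect on Cd14 between 6 and 72 h was -0.78 log2 units and was not called with all arrays (adjusted p = 0.191), but was called without replicate 1 of PCB126 at 72 h (adjusted p = 0.0355).

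Tlr4, the receptor that signals on LPS, was not called. Its log2 levels at 72 h were 4.18, 4.51 and 4.84 in PCB126 cultures and 5.01, 5.57 and 5.07 in DMSO cultures, without overlap. The difference there was -0.71 log2 units (95% interval -1.17 to -0.24, limma adjusted p = 0.0658), and it was called without replicate 1 of PCB126 at 24 h (adjusted p = 0.0452) or replicate 3 of PCB126 at 72 h (adjusted p = 0.0405), and among genes above the median probe set level (adjusted p = 0.0441). Over all 29 alternatives the difference ran from -0.87 to -0.43, with adjusted p up to 0.46 when only probe sets above the median level were used, and the other 26 did not call it. At 24 h its arrays overlapped, and the difference was -0.13 (95% interval -0.59 to 0.34, adjusted p = 0.865). Tlr4 rests on 6 probe sets, 4 of them brighter than the median probe set, and 5 of the 6 were lower in PCB126 cultures at 72 h.

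Vcam1, which binds integrins of monocytes and lymphocytes, was near the median probe set, 4.03, on all 9 PCB126 arrays (log2 3.97 to 4.63). At 6 h its log2 levels were 4.55, 3.97 and 4.12 in PCB126 cultures and 5.16, 4.93 and 4.40 in DMSO cultures. At 24 h they were 4.63, 4.29 and 4.11 in PCB126 cultures and 6.00, 5.44 and 6.14 in DMSO cultures. At 72 h they were 4.13, 4.49 and 4.32 in PCB126 cultures and 5.84, 5.99 and 6.14 in DMSO cultures. The groups overlapped at 6 h and were separate at 24 and 72 h. The difference was -0.62 ± 0.22 log2 units (SE) at 6 h (limma adjusted p = 0.394), -1.52 at 24 h (adjusted p = 0.00056) and -1.67 at 72 h (adjusted p = 0.000119), at places 30 and 40 from the lowest of 16988 genes at the later times. The 24 and 72 h calls were kept without any 1 of the 18 arrays.

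Vcam1 also changed with time in DMSO cultures, where it was higher at 72 h than at 6 h by 1.16 log2 units (limma adjusted p = 0.00989), a call lost without replicate 3 of DMSO at 72 h (adjusted p = 0.0546). In PCB126 cultures the same difference was 0.11 log2 units (95% interval -0.37 to 0.58, adjusted p = 0.863). The test of the difference between these changes, the treatment effect at 72 h minus that at 6 h, was -1.05 log2 units and did not pass (adjusted p = 0.17). Centring each array on its median gene moved the median of all genes between 72 and 6 h from -0.047 to 0.102 log2 units in DMSO cultures, and from -0.045 to 0.087 in PCB126 cultures. With that centring the DMSO differences of C3, Vcam1 and Lbp were 0.89, 1.31 and -1.25, each still called.

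Icam1, which binds leukocyte integrins during firm adhesion, was not called at any time. It averaged 5.30 ± 0.18, 5.19 ± 0.28 and 4.86 ± 0.12 log2 units in PCB126 cultures at 6, 24 and 72 h and 5.15 ± 0.14, 5.28 ± 0.40 and 5.12 ± 0.23 in DMSO cultures (SD, n = 3). The groups overlapped at all 3 times. The differences were 0.15, -0.09 and -0.25 log2 units, with 95% intervals of -0.26 to 0.56, -0.50 to 0.32 and -0.66 to 0.15 (limma adjusted p = 0.912, 0.896 and 0.558). The intervals leave room for changes of that size, and none reaches the estimates for Vcam1, -1.52 and -1.67, at 24 and 72 h. Of the 11 probe sets of Icam1, 6 were lower in PCB126 cultures at 24 h and 7 at 72 h, while all 11 of Vcam1 were lower at both times.

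**Figure D3:**
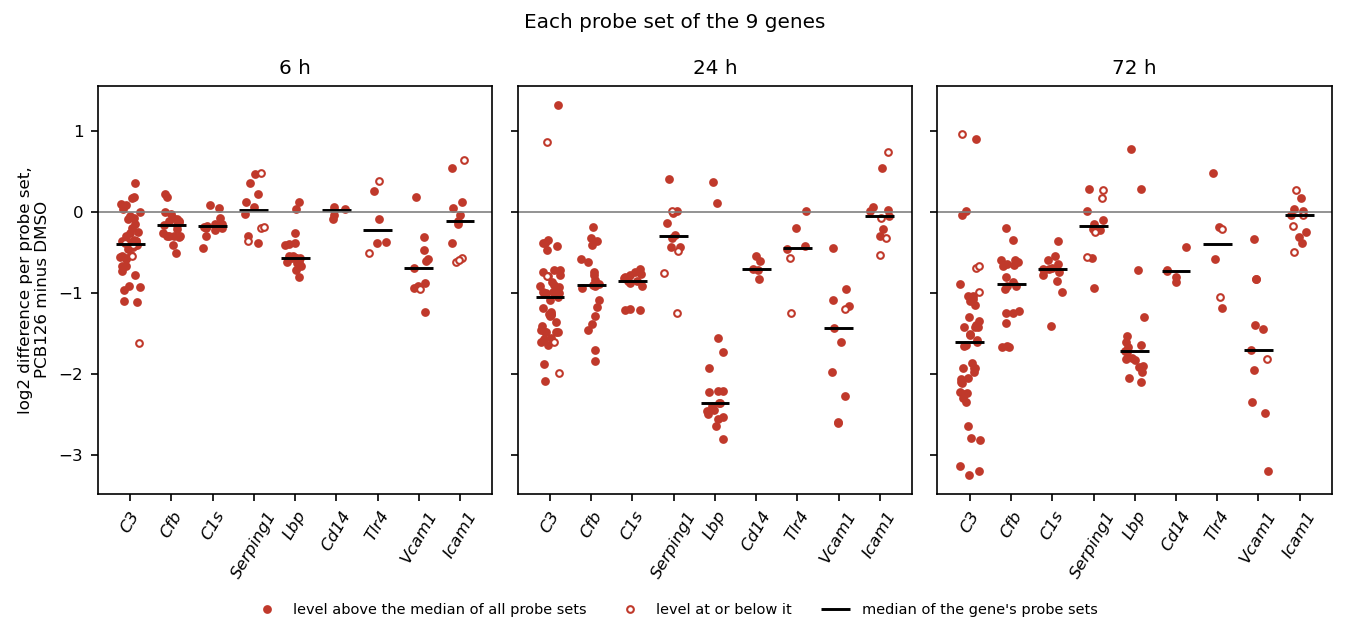
Difference between PCB126 and DMSO cultures for each of the 141 probe sets of the 9 genes at 6, 24 and 72 h (log2 units, PCB126 minus DMSO), open circles for probe sets at or below the median level of all probe sets and bars for the median of a gene's probe sets. The probe sets of Cfb, C1s, Cd14 and Vcam1 are all below 0 at 24 and 72 h, and 2 of Lbp stay above 0.

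Averaged over the 3 times, the same 6 genes were called lower, where 11.8% of all genes were called and 7.38% were called lower. The average differences were -1.53 log2 units for Lbp (limma adjusted p = 1.29e-09), -1.27 for Vcam1, -0.64 for Cfb, -0.61 for C1s and -0.46 for Cd14 (adjusted p = 0.00446), and C3 was 2.01-fold lower (adjusted p = 2.42e-06). They were -0.27 for Tlr4 (adjusted p = 0.203), -0.13 for Serping1 (adjusted p = 0.487) and -0.07 for Icam1 (adjusted p = 0.804). Among all genes called in this comparison 37.7% were higher, and 50% were after centring each array on its median gene.

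Of 36 other complement genes listed, 32 were measured, with C4a counted under C4b because the annotation gives these near-identical copies 1 symbol, and its value may mix them. At 24 h 3 of them were called, all lower: Cd55, which speeds the decay of convertases, at -0.96 log2 units (limma adjusted p = 0.00484), C4b, the target of C1s, at -0.83 (adjusted p = 0.00238), and C1r, the protease that activates C1s, at -0.41 (adjusted p = 0.0307). The C1r call was lost without any 1 of the 6 arrays of 24 h (adjusted p between 0.0539 and 0.154). C4b averaged 10.37 ± 0.17 in PCB126 cultures and 11.72 ± 0.12 in DMSO cultures at 72 h (SD, n = 3), a difference of -1.35 log2 units. At 72 h 2 of the 32 were called lower, C4b and Cd55, and 2 higher: C1qc, a chain of C1q, at 1.07, and C1rl, a relative of C1r, at 0.73 (adjusted p = 0.00351). C1qc rests on 4 probe sets and averaged 5.00 ± 0.24 in PCB126 cultures and 3.93 ± 0.46 in DMSO cultures (SD, n = 3). Its call (adjusted p = 0.0102) was lost without replicate 1 of DMSO or replicate 3 of PCB126 at 72 h (adjusted p between 0.0527 and 0.0614) and in the fit of the compared groups alone (adjusted p = 0.0752). With only probe sets above the median level the difference was 0.60 log2 units and was not called (adjusted p = 0.239). The C1rl call was also lost in the fit of the compared groups alone (adjusted p = 0.0752). The share called was 9.38% at 24 h and 12.5% at 72 h, against 4.84% and 7.44% of all genes. The median difference of the 32 genes was -0.06, -0.14 and -0.04 log2 units at 6, 24 and 72 h, and at 6 h limma called 0 of them, with 2 at an unadjusted p under 0.05.

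Of the other genes of LPS sensing and Toll-like receptor signalling, 1 was called, at 72 h. Of 39 listed genes 32 were measured, and limma called 0 at 6 h and 0 at 24 h, with 1 and 2 at an unadjusted p under 0.05, against 1412 and 2611 of all 16988 genes. The share called was 0% at 24 h and 3.12% at 72 h, against 4.84% and 7.44% of all genes. It was Nfkbib, an inhibitor of NF-κB, which was higher by 0.58 log2 units (adjusted p = 0.0104), a call lost without replicate 1 or 2 of DMSO at 72 h (adjusted p between 0.0505 and 0.0524). The median difference of the list was 0, -0.09 and -0.02 log2 units at the 3 times.

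Of 29 other leukocyte adhesion genes listed, 26 were measured, and limma called 0 at 6 h, with 3 at an unadjusted p under 0.05. At 24 h 4 were called lower and 1 higher. Cx3cl1, a membrane-bound chemokine that captures leukocytes, averaged 6.21 ± 0.04 in PCB126 cultures and 7.04 ± 0.12 in DMSO cultures (SD, n = 3), a difference of -0.84 log2 units that was called (adjusted p = 0.00671). Selp, P-selectin, was at -0.64 (adjusted p = 0.0157), lost without replicate 1 or 2 of DMSO or replicate 3 of PCB126 at 24 h (adjusted p between 0.0567 and 0.095). Mcam, an adhesion molecule of the immunoglobulin family, was higher by 0.72 log2 units at 24 h (adjusted p = 0.00635) and by 0.90 at 72 h (adjusted p = 0.000621). At 72 h 3 were called lower and Mcam higher, with Jam3, a junctional adhesion molecule, at -0.85 (adjusted p = 0.00338) and Cd47, a signal that restrains phagocytes, at -0.78 (adjusted p = 0.000137). The share called was 19.2% at 24 h and 15.4% at 72 h, against 4.84% and 7.44% of all genes, and the list's median difference was -0.05, -0.04 and -0.06 log2 units at the 3 times.

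Of 34 acute phase and cytokine genes, 32 were measured, and limma called 0 at 6 h, with 3 at an unadjusted p under 0.05. At 24 h 4 were called, all lower, and at 72 h 3 were lower and 1 higher, a share of 12.5% at each time, against 4.84% and 7.44% of all genes. The largest differences at both times were those of Lifr and Osmr, receptor chains for cytokines of the interleukin-6 family, and Cp, ceruloplasmin. At 24 h they were -1.26, -1.03 and -1.02 log2 units (adjusted p = 0.014, 0.00981 and 0.0215), and at 72 h -1.38, -1.02 and -1.03 (adjusted p = 0.00474, 0.00696 and 0.0142). At 24 h the Lifr call was lost without replicate 1 or 2 of DMSO or replicate 1 or 3 of PCB126 of that time (adjusted p between 0.0569 and 0.0618), and the Cp call without any of the same 4 arrays (between 0.053 and 0.117). At 72 h the Cp call was lost without replicate 3 of DMSO or replicate 2 or 3 of PCB126 (between 0.056 and 0.0775). The median difference of the list was -0.01, 0.10 and 0 log2 units, and of the other 29 genes limma called Stat3, lower at 24 h, and Tnfrsf1a, higher at 72 h.

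**Figure D4:**
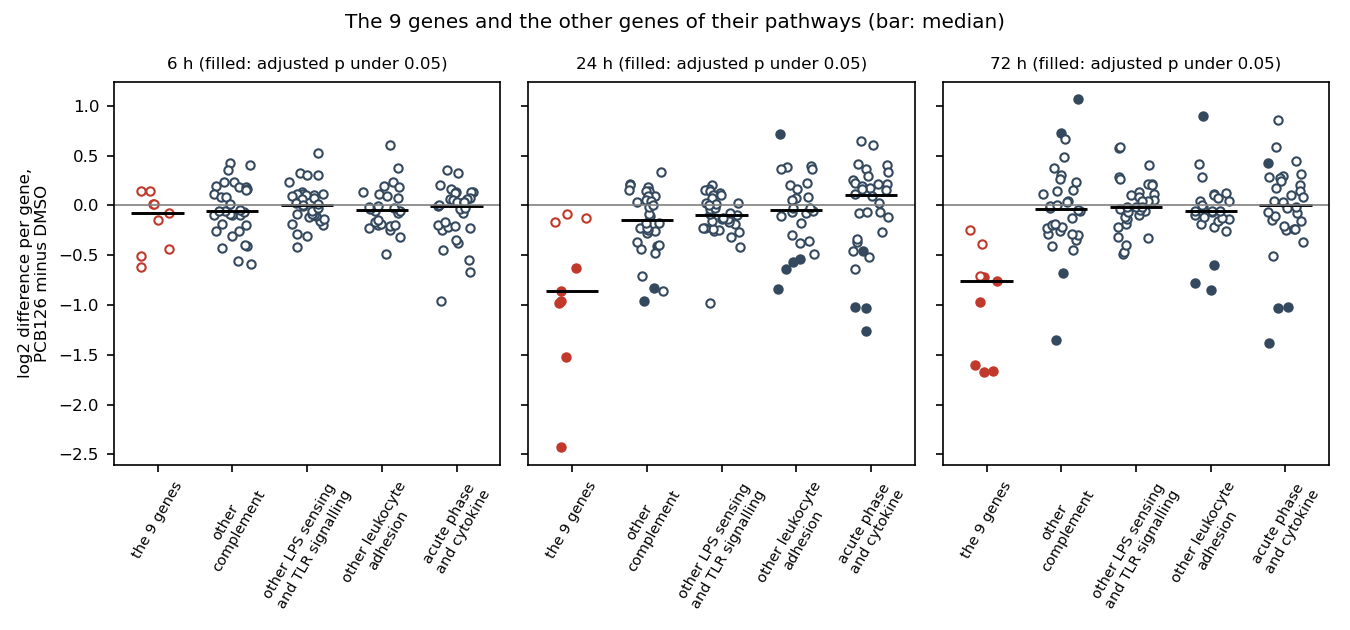
Difference between PCB126 and DMSO cultures for the 9 genes (red) and for the measured genes of 4 related lists (dark blue) at 6, 24 and 72 h, in log2 units (PCB126 minus DMSO), filled for an adjusted p under 0.05 and with bars for the medians. At 24 h the median of the 9 genes is -0.86 and those of the 4 lists lie between -0.14 and 0.10.

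Markers of other cells that use these genes were read beside the results. The 11 macrophage markers averaged, per array, 4.04 to 4.13, 4.02 to 4.25 and 4.04 to 4.32 log2 units in PCB126 cultures at 6, 24 and 72 h and 3.88 to 4.16, 3.89 to 4.13 and 4.09 to 4.13 in DMSO cultures. Limma called 0 of the 11 at any time, with 0, 3 and 0 at an unadjusted p under 0.05. Of the 11, 7 were above the median probe set, between 4.12 (Itgam) and 5.00 (Marco), and 4 were below it: Ptprc (3.03), Emr1 (3.47), Lyz2 (3.50) and Cd163 (3.75). The 7 neutrophil and lymphocyte markers measured of 9 had 0 called, with 0, 1 and 1 at an unadjusted p under 0.05. The 7 endothelial markers measured of 8 averaged 5.11 to 5.16, 4.95 to 5.13 and 5.07 to 5.09 in PCB126 cultures and 5.18 to 5.43, 5.23 to 5.33 and 5.30 to 5.45 in DMSO cultures, without overlap at any time. All 7 were above the median probe set. Among them limma called Tek, an endothelial receptor kinase, alone, at -1.31 log2 units at 24 h (adjusted p = 0.00014) and -1.53 at 72 h (adjusted p = 1.35e-05). The other 6 were not called and ran from -0.32 to 0.40 log2 units at 24 h and from -0.27 to 0.02 at 72 h. The endothelial averages include Tek, whose mean level was 7.10. Those of the other 6 lay between 4.48 (Cdh5) and 5.11 (Tie1), below the median of the gene values on every array.

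Some markers of other liver cells were called lower beside the 6 called genes. The markers not called went in both directions. At 72 h Krt7 of the cholangiocyte list was at 0.32 log2 units and Des of the stellate and fibroblast list at 0.46. Of 9 hepatocyte markers measured of 10, limma called Cyp2e1, a cytochrome P450, at -1.23 log2 units at 24 h (adjusted p = 0.000861) and -2.67 at 72 h (adjusted p = 1.57e-07), and no other. The list averaged 4.34 to 4.58 in PCB126 cultures and 4.61 to 4.82 in DMSO cultures at 72 h. These averages include Cyp2e1, and the other hepatocyte markers ran from -0.16 to 0.20 log2 units at 72 h. Of 6 cholangiocyte markers measured of 7, Krt19, a bile duct keratin, was called at -1.01, -0.95 and -1.37 log2 units at 6, 24 and 72 h and Sox9, a duct transcription factor, at -0.85 at 72 h. The list averaged 4.71 to 4.77 at 24 h and 4.60 to 4.83 at 72 h in PCB126 cultures, and 4.92 to 5.14 and 4.92 to 5.16 in DMSO cultures. Of 9 stellate and fibroblast markers measured of 10, Col3a1, a fibrillar collagen, was called at -1.22 at 72 h (adjusted p = 0.000155), and the list averaged 6.93 to 7.04 in PCB126 cultures and 7.00 to 7.13 in DMSO cultures there. Of the 8 markers of the line itself, limma called 1 higher and 2 lower at 24 h, and 2 higher and 1 lower at 72 h. Vim was higher by 0.67 log2 units at 24 h and by 1.15 at 72 h, and Krt8 by 1.08 at 72 h. Krt14 was called lower at both times, at -0.87 at 24 h, and Krt18 at 24 h alone, at -0.69. The part of the cells that the markers of any of these lists stand for in the differences of the 6 genes was not tested.

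Over the 18 arrays the genes whose levels ran most like those of the 6 called genes were sought among 12360 genes with at least 4 probe sets and a mean above the median probe set. These correlations include the treatment and time differences that the arrays share. For Lbp they were Hpd, a tyrosine breakdown enzyme, Mme, neprilysin, and Bace2, an aspartyl protease, with Pearson r of 0.98, 0.975 and 0.971. For C3 they were Ankh, Prickle2 and Glb1l2, with r of 0.951, 0.945 and 0.943, and for Vcam1 Tgfb3, Fgf1 and Rcan1, with 0.934, 0.922 and 0.915. For C1s they were Ctsf, Postn and Tcn2, with 0.931, 0.925 and 0.924, for Cfb Cpt1c, Jmjd8 and Aplp1, with 0.924, 0.916 and 0.907, and for Cd14 Rab7b (RGD1562617 on the array), Wipi1 and Dusp14, with 0.946, 0.939 and 0.935. Among the 9 genes, Cfb and Lbp had r of 0.887, Lbp and Cd14 0.826, and C3 and Vcam1 0.823 over the 18 arrays, while Vcam1 and Icam1 had 0.19.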

How the data were processed

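Expression was measured on Affymetrix rat exon arrays in 18 samples. The authors deposited log2 values of 1044112 probe sets, which the authors made by RMA in Affymetrix Power Tools, version 1.12.0 according to the submitters' processing notes. The RMA version and the array build are not given in the sources used here. RMA's background correction and normalisation compress differences of dim and very bright probe sets. Depth has no meaning for arrays, and 3 arrays per group limit the precision. Whether the repeats came from separate passages or thaws is not stated, so a p-value reflects the spread among these samples alone, which may be technical.

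The platform annotation paired 223110 probe sets with 1 symbol, 3523 with several and 817479 with none, and only the first entered. The median of a gene's probe sets was its value, for 16988 genes. With limma 3.58.1 in R 4.3.3 (matrixStats 1.5.0, data.table at version 1.17.8), each group of the 18 arrays was given its own mean in 1 model, with 12 residual and 3.89 prior degrees of freedom, and tested by two-sided moderated tests. Within a comparison, p-values of all genes were adjusted together (Benjamini-Hochberg), and an adjusted p under 0.05 was a call. The fits were tested on simulated data.

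The 9 genes and the lists were chosen with earlier results of these data known, so they give no independent support for a direction. Named besides the 9 genes were Cyp1a1 and Aldh3a1, up to 3 called genes with the largest change for each list and time, the 3 genes most like each called one, and promoters of 4 genes. Stat3, Tnfrsf1a and Cd55 at 72 h, the shared Cfb and C2 probe sets and the cell type markers named were picked after their values were seen. Promoters were searched for matches in R.

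Alternatives were the mean over probe sets, probe sets or genes above the median level of 4.03, genes with at least 4 probe sets, centring, quantile normalisation, an intensity trend, array weights, the compared groups alone, the replicate number as a block and leaving out arrays. A change of sign was counted only for a called value. Same-numbered arrays of different groups had correlated deviations with a median r of 0.031 (6 of 45 pairs over 0.1), so the numbers were not taken as pairs.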

Additional observations from a re-analysis of the deposited data

Results flagged for a closer look

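The effect of PCB126 differed between times, by a test of the difference itself, for 3 results. For Lbp the difference between PCB126 and DMSO cultures at 24 h minus that at 6 h was -1.92 log2 units (limma adjusted p = 0.000342) and that at 72 h minus that at 6 h was -1.15 (adjusted p = 0.0065). In both cases the 3 PCB126 arrays lay below the 3 DMSO arrays at either time. For C3 the difference at 72 h minus that at 6 h was -1.16 log2 units (adjusted p = 0.0293), a call lost without any 1 of 9 arrays, the 3 PCB126 and 3 DMSO arrays of 6 h, replicates 1 and 2 of PCB126 at 72 h and replicate 3 of DMSO at 72 h (adjusted p between 0.0514 and 0.0804). Limma's F-test of the effect differing between the times did not call C3 (F = 11.8, adjusted p = 0.0847). For C3 the differences 24 h minus 6 h and 72 h minus 24 h were not called either (limma adjusted p = 0.674 and 0.767). The cause of the 3 flagged differences was not tested.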

How the results depend on the processing

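For the 9 genes, 126 results were recomputed under alternatives, giving 3609 values: 3530 kept direction and side of the threshold, 54 lost a call, 25 gained one and 0 called values changed sign. For 19 results of named list genes, 511 of 551 were kept, 40 lost a call and 0 changed sign. Among the calls lost in limma fits of the compared groups alone were Jam3, Lifr and Osmr at 72 h (adjusted p = 0.0804, 0.0628 and 0.0893). C4b at 24 h was lost there too (0.0509). The C1r call at 24 h was lost on centring (0.0629) and on quantile normalisation (0.0559). The calls of 6 of the 9 genes at 72 h fell to 3 in fits of the compared groups alone (C1s 0.116, Cd14 0.126, Cfb 0.0553), where at 24 h C3 (0.0511) and Cd14 (0.0613) were lost. With the mean over probe sets 1 of the 9 was called at 6 h, Lbp, and Cd14 was lost at 24 h (0.0543). The F-test called 2 of the 9 with the mean, with probe sets above the median level, with genes above it, with quantile normalisation and with array weights. Leaving out 1 array gave 0 to 0, 4 to 6 and 5 to 7 of the 9 genes at 6, 24 and 72 h, and 1 to 2 by the F-test.

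Counts of all genes moved more. Between PCB126 and DMSO, 84, 823 and 1264 genes were called at 6, 24 and 72 h. The mean over probe sets gave 178 and 1256 at 6 and 24 h, array weights 169 at 6 h, and the compared groups alone 11, 453 and 416. The F-test called 96, against 210 with the mean, 148 with genes above the median level, 152 centred, 170 with a trend and 306 with weights. In DMSO cultures 24 against 6 h had 0, against 4 with the mean, bright probe sets, quantile normalisation or a trend, 2 with genes of at least 4 probe sets, 3 with genes above the median level, 5 centred and 27 with weights. DMSO at 72 against 24 h had 66, against 226 with the mean, 128 with genes above the median level, 135 with a trend, 151 with weights and 10 alone. DMSO at 72 against 6 h had 703, against 1346, 1304 and 73 with the mean, weights and groups alone. PCB126 at 24 against 6 h had 106, against 242, 183 and 8 with these and 64 without replicate 1 of PCB126 at 24 and 72 h. PCB126 at 72 against 24 h had 109, against 182, 366 and 0, and at 72 against 6 h 962, against 1601, 1887 and 188. Fits of the groups alone have fewer samples, and the other causes were not tested. Among genes called in DMSO at 72 against 6 h, 20.9% were higher, and 58.8% after centring.

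Leaving out 1 array gave 32 to 90, 449 to 950 and 885 to 1272 genes for PCB126 against DMSO at 6, 24 and 72 h, 1689 to 2066 averaged over the times and 37 to 104 by the F-test. In DMSO cultures it gave 0 to 2, 13 to 97 and 161 to 825 for 24 against 6, 72 against 24 and 72 against 6 h, and in PCB126 cultures 33 to 138, 46 to 115 and 533 to 1129. With the replicate number as a block, 77, 878 and 1316 genes were called at 6, 24 and 72 h, of which 72, 784 and 1200 were also called without it, 119 by the F-test and 2099 averaged. Of the 9 genes 0, 5 and 6 were called under the block, with Cd14 at 24 h lost (0.053), and Cfb was gained in DMSO at 72 against 24 h (0.0144); the block changed no other call of these genes or of the named list genes.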
